A study of Mus musculus with 26 samples.

Results

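TCRTg101 that had kept their CellTrace Violet dye in leukemia-bearing mice were compared with TCRTg101 from mice without leukemia, both taken from spleen at day 18. Members were chosen by label alone. The undivided cells (CTVhi) from leukemia-bearing mice made up 1 library sequenced in 2 runs, and the cells from untreated mice, called leukemia-free here, made up another library of 2 runs, so that 4 of the 26 deposited runs and 2 of the 15 libraries of the series belong to the comparison. TCRTg101 are CD8+ T cells that carry the transgenic receptor of a clone reactive to C1498, a myeloid leukemia line of C57BL/6 mice, and the methods state that the donors were bred onto Rag2-/-. The labels give C57BL/6, 6 week old and wild type for both groups. For leukemia-bearing mice the methods describe transfer of dye-labelled cells, with C1498 given intravenously 1 day later. The label of the leukemia-free mice says only that they were untreated, and the number of mice behind each library was not given in the sources used here.

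A T cell that divides shares its dye between its daughters, so a cell that keeps the dye has not divided since labelling. Such a cell in a leukemia-bearing host may or may not have met its antigen, since dye records division and not contact. Naive CD8+ T cells recirculate through lymphoid organs under factors such as TCF1, LEF1, KLF2 and FOXO1, whereas receptor engagement brings on early genes such as Tnfrsf9 and Nr4a1, then effector molecules such as granzyme B and the chemokine XCL1, and genes of the cell cycle.

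The leukemia-free library held 28320039 estimated counts (23841458 in run 1 and 4478581 in run 2) and the undivided library held 29079942 (24600373 and 4479569). The other 12 low-input libraries held between 22918996 and 71358287. The transgenic receptor checked the identity of the cells. Trbv5, which encodes the transgenic Vβ1, took 99.75% of all Trbv counts in leukemia-free cells (95% exact binomial interval 99.72 to 99.77) and 99.76% in undivided cells (99.74 to 99.78). The Trav13 family, to which the transgenic α chain belongs, took 73.9% (72.9 to 74.9) and 73.1% (72.1 to 74.1) of Trav counts. Levels are given below as CPM, counts scaled to the size of the library by the trimmed mean of M-values (TMM). Cd8a stood at 760 and 767 CPM and Cd3e at 924 and 985 CPM in leukemia-free and undivided cells. Some defining genes of other cells were near or at 0 in both, and others were not. Pf4 of platelets and Ncr1 of NK cells had 0 counts in either library, which allows up to 3 counts each, Cd79a of B cells had 21 and 22 counts, Cd4 had 4 and 6, and Alb of hepatocytes had 1 and 0. The red cell globin Hbb-bs stood at 49.6 and 42.9 CPM, and Cd74, the MHC class II invariant chain of antigen-presenting cells, at 19.9 and 14 CPM. Intervals cover counting error only.

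How far apart the libraries lay was read against pairs of libraries from the same group. Among 9000 genes with a mean of at least 10 CPM over the 14 low-input libraries, the log2 difference between undivided and leukemia-free cells had an SD of 0.28, and 96.7% of genes lay within 1.5-fold. The SD was 0.50 between the 2 spleen libraries of day 7, 0.44 between 2 liver libraries of days 13 and 14 from the same series of libraries, and 0.64 between the 2 day 0 controls, which came from different series. Between the runs of a library it was 0.26 for leukemia-free and 0.24 for undivided cells. Undivided cells from leukemia-bearing mice thus differed from leukemia-free cells by less than any of these pairs of the same group. The pairs are wide yardsticks, however. The second spleen library of day 7 stood apart, with 6094 CPM of olfactory and vomeronasal receptor genes beside 1293 CPM in the first. The day 0 controls held 5270 and 20356 CPM of a list of red cell genes. How far such differences widened the pairs was not tested. Of the 9000 genes, 107 differed by 2-fold or more (1.19%), against 298 (3.31%), 355 (3.94%) and 766 (8.51%) in the 3 pairs and 62 and 52 between runs.

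**Figure D1:**
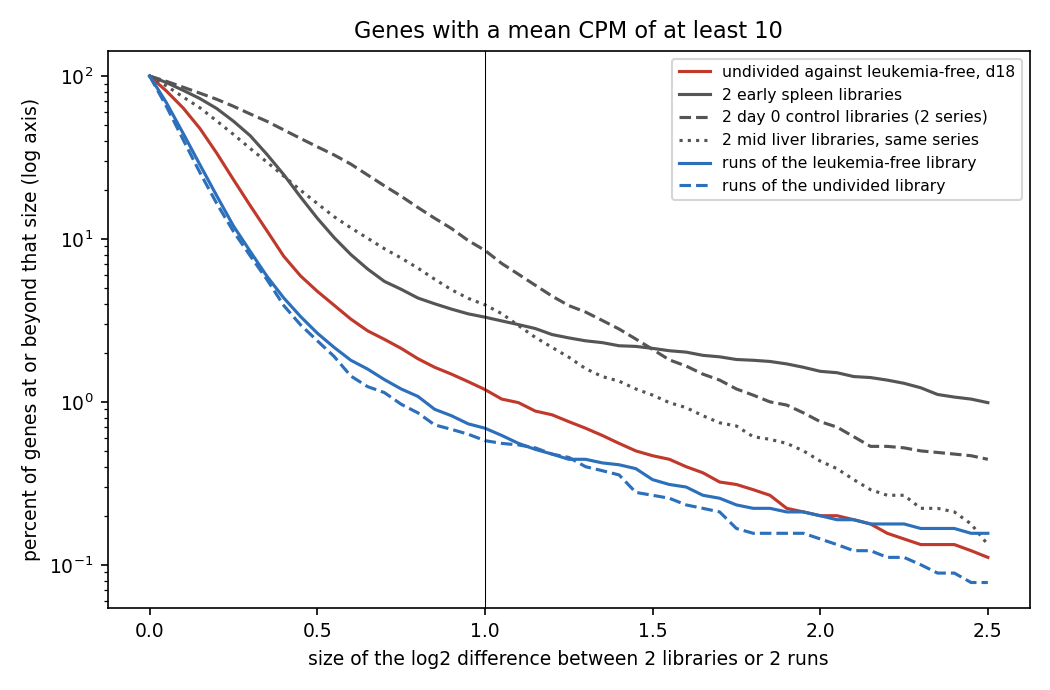
Percent of the 9000 genes with a mean of at least 10 CPM (log axis) whose log2 difference is at or beyond the size on the x axis, for undivided against leukemia-free cells (red), pairs of libraries of the same group (gray) and the 2 runs of each library (blue). At a log2 difference of 1 the red line stands at 1.19%, above the run lines (0.689% and 0.578%) and below the 3 pairs of libraries (3.31% to 8.51%).

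With 1 library a group there was no replicate check, so genes were called by size. A gene was called when the log2 difference of the summed libraries was 1 or more and each of the 4 pairings of an undivided run with a leukemia-free run passed 1 in the same direction. Of 15465 genes tested, 82 were at least 2-fold higher in undivided cells (0.53% of genes) and 233 were at least 2-fold lower (1.51%). Without the run rule the counts were 412 and 964. Most called genes were scarce. In 57 of the 82 higher and 185 of the 233 lower genes, the library with more of the transcript held under 2 CPM, and in 4 and 27 it held 10 CPM or more. There were 57 protein-coding genes among the higher and 180 among the lower.

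**Figure D2:**
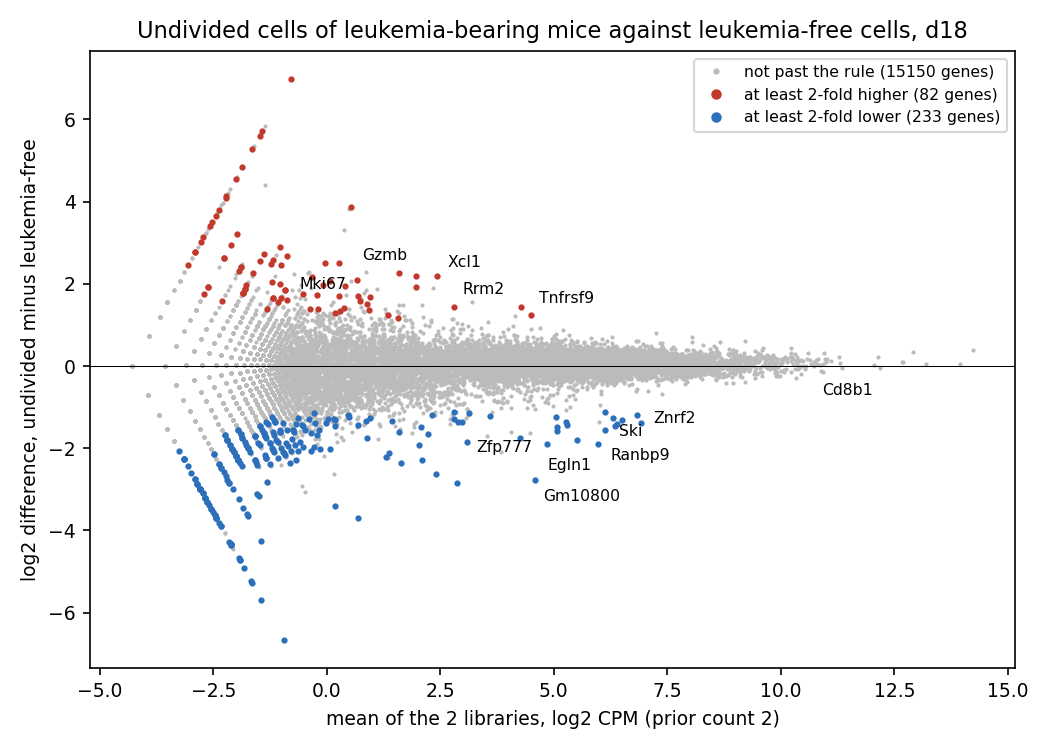
Log2 difference between undivided and leukemia-free cells (y axis) against the mean log2 CPM of both libraries (x axis), 1 point a gene. The 82 genes called higher (red) and 233 called lower (blue) gather at low levels, and the abundant gene Cd8b1 lies at the zero line.

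Abundant genes of the naive state differed little between the libraries. Tcf7, which encodes TCF1, stood at 1429 and 1421 CPM in undivided and leukemia-free cells, a log2 difference of 0.01 with a pooled standard error (SE, defined with the test below) of 0.58. Ccr7, the chemokine receptor that guides naive cells into lymph nodes, stood at 1018 and 987 CPM, and S1pr1, which guides them out, at 621 and 604 CPM. Klf2, the transcription factor that drives S1pr1, stood at 807 and 802 CPM. Each of these differed by at most 0.05 on the log2 scale. Among all genes of at least 10 CPM, the median size of the difference between runs was 0.09 in leukemia-free and 0.08 in undivided cells. That median does not measure the run noise of these abundant genes. S1pr1 read 621 and 621 CPM in the undivided runs and 604 and 605 CPM in the leukemia-free runs. Ccr7 read 1019 and 1016 CPM against 989 and 977 CPM. The runs of the libraries thus did not overlap in S1pr1 and Ccr7, but they overlapped in Klf2 and Tcf7. Lef1 was 731 CPM in undivided and 813 CPM in leukemia-free cells (difference -0.15), Il7r, the receptor for the survival cytokine IL-7, was 440 and 460 CPM, and Foxo1 was 374 and 384 CPM. None of 16 naive and stemness transcription factors and none of 16 homing and naive surface genes was called in either direction. Over all genes only 0.53% were called higher and 1.51% lower, so the absence of a call in lists this short says little. Their median differences were 0.04 for the transcription factors and 0.02 for the homing and surface genes, beside 0.03 for all genes tested.

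Genes of T cell activation that were higher in undivided cells are described first. Xcl1, a chemokine that attracts cross-presenting dendritic cells, read 11.2 and 12.7 CPM in the undivided runs and 2.58 and 1.64 CPM in the leukemia-free runs. This was a 4.68-fold excess (95% counting interval 3.64 to 6.09). Gzmb, which encodes the cytotoxic protease granzyme B, read 8.42 and 7.53 CPM against 1.62 and 2.67 CPM, a 4.64-fold excess (3.45 to 6.33). Tnfrsf9, the costimulatory receptor 4-1BB that follows receptor engagement, read 35.6 and 30.5 CPM against 14.7 and 14.4 CPM, a 2.37-fold excess (2.12 to 2.65). In all 3 genes the runs of the libraries did not overlap, which the calling rule required. Their day 0 controls read 1.12 and 0.41 CPM for Xcl1, 3.16 and 2.07 CPM for Gzmb and 5.78 and 3.34 CPM for Tnfrsf9, so that undivided cells lay above all 3 leukemia-free libraries. Over all genes tested, undivided cells lay above these 3 libraries in 21.4% and below them in 18.7%.

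Most libraries of leukemia-bearing mice that were not sorted for the dye held more of these genes. In the spleen library of day 14, Xcl1 stood at 64.3 CPM, Gzmb at 116 CPM and Tnfrsf9 at 135 CPM. In the 2 liver libraries of days 16 and 18, Xcl1 stood at 320 and 1790 CPM, Gzmb at 775 and 1946 CPM and Tnfrsf9 at 491 and 909 CPM. The second liver library of day 7 held 5.08 CPM of Gzmb and 11.9 CPM of Tnfrsf9, less than undivided cells, and 22.3 CPM of Xcl1. The 2 spleen libraries of day 7 lay on both sides of the undivided value in Gzmb and Tnfrsf9 and under it in Xcl1, with 10.8 and 1.45 CPM for Xcl1, 12.8 and 1.64 CPM for Gzmb and 57.5 and 10.1 CPM for Tnfrsf9. In bulk RNA, a few cells with much of a transcript and many cells with a little cannot be told apart.

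**Figure D3:**
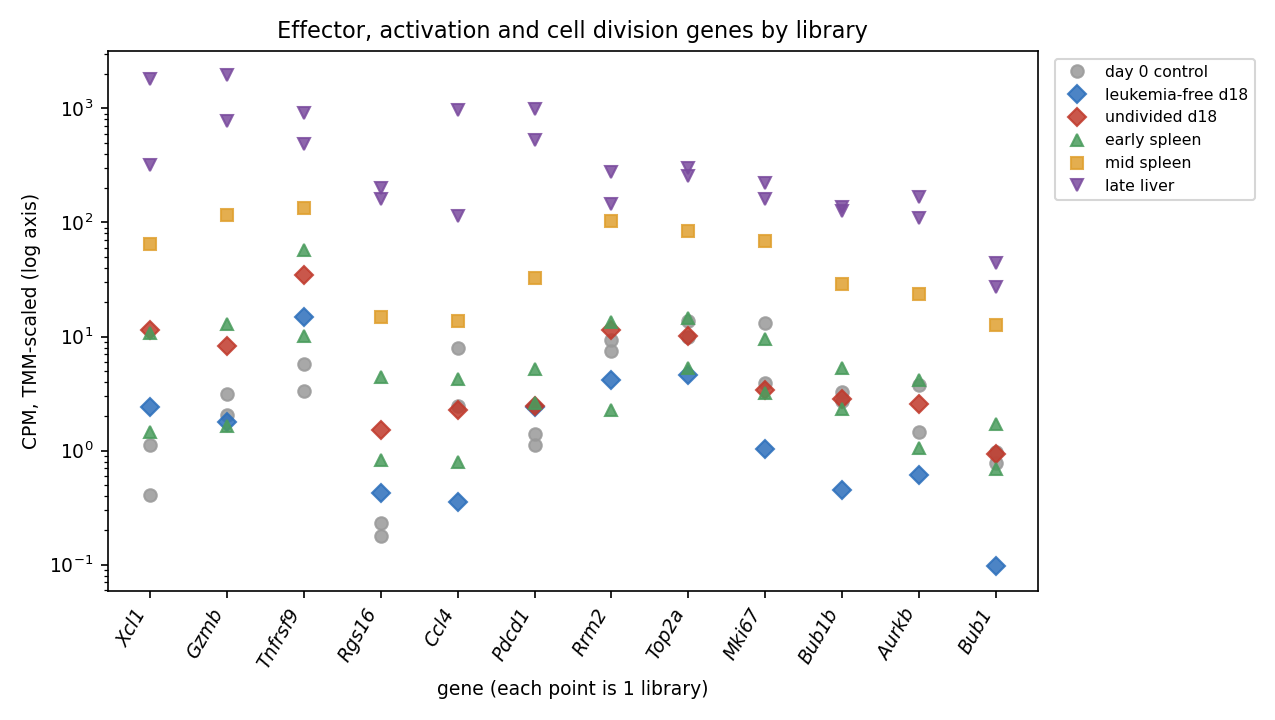
CPM (log axis) of effector, activation and cell division genes, 1 point a library. Undivided cells (red diamonds) stand above leukemia-free cells (blue diamonds) in every gene shown, by least in Pdcd1 (2.45 and 2.43 CPM), and under the day 14 spleen library (orange) and the liver libraries of days 16 and 18 (purple), with earlier liver libraries not drawn.

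Other activation genes divided into a few that were called and a majority that were not. Ccl4, a chemokine of activated T cells, had 68 counts in undivided and 11 in leukemia-free cells (2.25 and 0.357 CPM, 6.31-fold, 3.31 to 13.2), but the day 0 controls held 8.01 and 2.48 CPM. Rgs16, a regulator of G protein signalling, had 46 and 13 counts (1.52 and 0.422 CPM), with 0.18 and 0.234 CPM at day 0. Of 18 effector molecules, 3 were called higher (Ccl4, Xcl1 and Gzmb) and 0 lower, with a median of 0.18. Prf1, which encodes perforin, stood at 69.8 and 72.9 CPM in undivided and leukemia-free cells, and Ifng at 20 counts in each. Of 24 early genes of receptor signalling, 1 was called higher (Tnfrsf9) and 0 lower, beside the same shares of all genes. Nr4a1, an orphan nuclear receptor induced by receptor signals, read 52.4 and 52.3 CPM against 38.2 and 35.7 CPM, a 1.39-fold excess (1.28 to 1.5), although the day 0 controls held 130 and 103 CPM. Cd69 differed by -0.02 and Egr2 by -0.20 on the log2 scale. Tnfrsf9 was also the single gene called among 11 costimulatory receptors, again beside 0.53% of all genes called higher and 1.51% called lower.

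None of 12 co-inhibitory receptors was called, beside 0.53% of all genes called higher and 1.51% called lower. The absence of a call in a list this short, or in the 26 surface markers below, therefore says little. The co-inhibitory receptors named here were scarce in both libraries. Pdcd1, which encodes PD-1, had 74 and 75 counts in undivided and leukemia-free cells, Ctla4 67 and 56, Tigit 45 and 26, and Lag3 21 and 6. Havcr2, which encodes TIM-3, had 1 and 10 counts, a ratio of 0.102 with a counting interval of 0.00235 to 0.718. The runs of the leukemia-free library disagreed in Lag3 (0.0386 and 1.03 CPM), and its pairings ran from -0.69 to 2.83 on the log2 scale. Tox, a transcription factor of exhausted cells that naive cells also carry, stood at 88.1 and 79.3 CPM (1.11-fold, 1.05 to 1.18). None of 26 surface markers of antigen experience was called, with Cd44 at 7.16 and 5.23 CPM, Il2rb at 338 and 289 CPM and Ly6c2 at 212 and 176 CPM. These named markers were higher in undivided cells, but the list went both ways, from -1.82 to 1.33 on the log2 scale. Its median was 0.20, and 16 of the 26 were above 0 (61.5%, beside 54.7% of all genes). Eomes, named after its value was seen, stood at 41.4 and 25.1 CPM.

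Genes of mitosis were higher in undivided than in leukemia-free cells as a list. Of 34 genes tested, 6 were called higher and 0 lower, beside 0.53% and 1.51% of all genes. In 33 the difference was above 0, beside 54.7% of all genes. The median log2 difference was 0.85 (0.72 to 0.92 over the 4 run pairings), the highest of the lists of cell functions fixed for the analysis. Summed over the 34 genes the levels were closer, at 1522 CPM in undivided and 1298 CPM in leukemia-free cells (ratio 1.17). Mki67, a marker of cycling cells, read 3.49 and 3.01 CPM in undivided and 1.12 and 0.616 CPM in leukemia-free runs (3.29-fold, 2.19 to 5.05). Bub1b, a kinase of the spindle checkpoint, had 85 and 14 counts (6.20-fold, 3.50 to 11.8), Bub1, its partner, 28 and 3 counts (9.53-fold, 2.94 to 49.0), and Aurkb, a kinase of chromosome segregation, 77 and 19 counts (4.14-fold, 2.48 to 7.24). Top2a, the topoisomerase that untangles chromosomes, read 10.2 and 10.3 CPM against 4.32 and 6.16 CPM and missed the rule in 1 run pairing. Each of these called genes was scarce, at under 4 CPM.

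For these genes the leukemia-free library lay farther from the day 0 controls than the undivided library did. Beside the mean of the day 0 controls the mitosis list had a median of -0.24 in undivided cells and -1.11 in leukemia-free cells. Mki67 stood at 13.2 and 3.93 CPM, Top2a at 13.7 and 10.0 CPM and Bub1b at 3.25 and 2.72 CPM in the day 0 controls, so undivided cells lay within or under the day 0 range and leukemia-free cells of day 18 lay under it. The list also moved between libraries of the same group, by -0.83 between the spleen libraries of day 7, -0.49 between the day 0 controls and 0.90 between the liver libraries of days 13 and 14. The difference of 0.85 was close in size to that of the day 7 spleen pair, larger than that of the day 0 pair and smaller than that of the liver pair. With counts scaled from TPM the median was 0.54.

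Of 36 DNA replication genes, 1 was called higher and 0 lower, beside 0.53% and 1.51% of all genes, and the median was 0.24. The list differed by -0.57 between the spleen libraries of day 7 and by 1.08 between the liver libraries of days 13 and 14, more than between undivided and leukemia-free cells. The called gene was Rrm2, the regulatory subunit of ribonucleotide reductase, at 11.5 and 11 CPM in the undivided runs against 4.01 and 5.13 CPM (2.73-fold, 2.22 to 3.37), with 9.37 and 7.52 CPM at day 0. Of 62 replication-dependent histone genes, 6 were called higher and 0 lower, beside the same shares of all genes. The histone list was added after the values were seen, and its median was 0.36. Between libraries of the same group that median was 0.12 for the spleen libraries of day 7, -0.76 for the day 0 controls and 0.87 for the liver libraries of days 13 and 14. Hist1h2ag had 39 and 4 counts, Hist1h3h 49 and 10, Hist1h2ab 18 and 0, and Hist2h3c2 9 and 0, where 0 allows up to 3 counts. These genes are near-identical copies, so the division of counts among them is uncertain.

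The promoters of mitosis genes often share the CHR element, TTTGAA or TTCGAA, through which the DREAM and MuvB complexes act. In windows of 300 bases (250 before and 50 after the RefSeq start, build GRCm38.p6, both strands), 21 of 28 mitosis genes with an entry held it (75%), and so did all 5 called genes with an entry, beside 1630 of 10865 tested genes (15%). The interferon element ISRE was held by 2 of the 28 (7.14%) and 1 of the 5 called genes, beside 3.3% of tested genes, the element GAS (TTCNNNGAA) by 0 of the 28, beside 7.16%, and the E2F letters TTTCCCGC or TTTGGCGC by 0 of the 28 and 2.9%. The CHR letters were chosen after the values were seen. A match of letters is a description and no sign of binding. The stretch from 90 bases before to 30 after the start is shown for the 3 called genes whose element falls within it, 5′ to 3′ on the gene's strand, with the element in capitals. Bub1 lies at chr2:127831830-127831949 (minus strand), Kif11, a mitotic motor protein called at 1.34 on the log2 scale, at chr19:37376292-37376411 (plus strand), and Ccnb2, a cyclin of mitotic entry called at 1.28, at chr9:70421525-70421644 (minus strand), the last 2 genes named after their values were seen.
Bub1: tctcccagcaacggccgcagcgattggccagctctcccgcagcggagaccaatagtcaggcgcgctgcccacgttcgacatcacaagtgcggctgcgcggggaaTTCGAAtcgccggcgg
Kif11: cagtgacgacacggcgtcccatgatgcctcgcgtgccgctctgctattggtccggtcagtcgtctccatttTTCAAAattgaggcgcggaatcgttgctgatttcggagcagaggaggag
Ccnb2: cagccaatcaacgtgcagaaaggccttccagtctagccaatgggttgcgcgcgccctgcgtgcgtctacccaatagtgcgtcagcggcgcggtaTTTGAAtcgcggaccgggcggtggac
In Kif11 the capitals show the element on the opposite strand.

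Interferon-stimulated genes and genes of protein synthesis differed by small amounts. Of 53 type I interferon-stimulated genes, 0 were called in either direction, 45 were above 0, and the median was 0.20. Over all genes tested, 0.53% were called higher and 1.51% lower, and 54.7% were above 0 with a median of 0.03. Among the 9000 genes with a mean of at least 10 CPM, 63.9% were above 0 with a median of 0.07. Isg15, a ubiquitin-like modifier, stood at 24.9 and 19.5 CPM in undivided and leukemia-free cells (1.28-fold, 1.14 to 1.42), with 31.4 and 17 CPM at day 0. In 29 of the 53 genes undivided cells lay above the 3 leukemia-free libraries and in 3 below them, beside 21.4% and 18.7% of all genes. Of 21 GTPases and other genes of the interferon-gamma response, 0 were called and the median was 0.17. The subunits of oxidative phosphorylation had a median of 0.25, with 72 of 75 above 0, and the cytosolic ribosomal proteins one of 0.20, with 78 of 79 above 0. The same lists differed by -0.62 and -0.65 between the day 0 controls. In none of these lists did the median pass the widest difference between libraries of the same group.

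**Figure D4:**
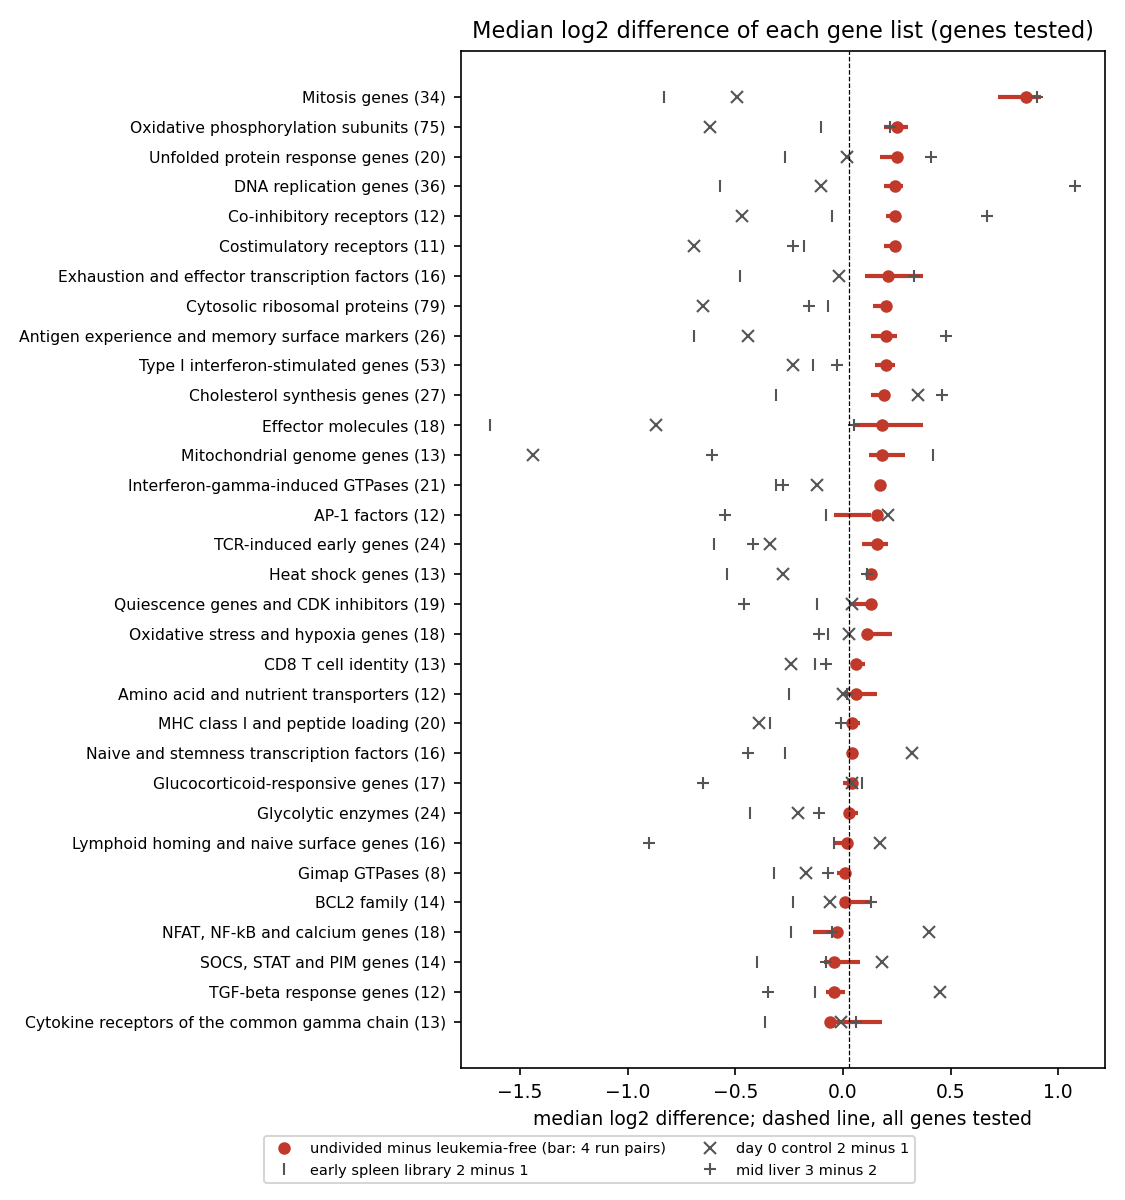
Median log2 difference of each list of cell functions (marker lists and lists added later not drawn) between undivided and leukemia-free cells (red points, with bars for the 4 run pairings), with the medians between pairs of libraries of the same group in gray. The mitosis list stands at 0.85, the other lists drawn between -0.06 and 0.25, and the gray marks reach -1.64 and 1.08.

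Among the genes lower in undivided cells, a group of well-measured protein-coding genes stood out because the leukemia-free library was high. Zfp777, a zinc finger gene, read 15.8 and 10.5 CPM in the undivided and 55.9 and 58.1 CPM in the leukemia-free runs, 3.75-fold lower in undivided cells (counting interval 3.38 to 4.16). Ranbp9, a scaffold protein that binds Ran, read 32.8 and 32.9 CPM against 122 and 122 CPM (3.72-fold, 3.47 to 3.99). Egln1, the prolyl hydroxylase that marks HIF-1α for degradation in oxygen, read 24.6 and 21.5 CPM against 85.5 and 78.6 CPM (3.50-fold, 3.22 to 3.81). On the log2 scale the run pairings ran from -2.45 to -1.81 in Zfp777 and from -1.98 to -1.67 in Egln1, and stood at -1.89 in Ranbp9. The calling rule required every pairing to pass 2-fold, so the runs are no separate test of these differences.

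Of the 15 largest deficits among called protein-coding genes at 10 CPM or more, 12 were such genes and 3 were predicted genes treated below. The 12 were Zfp777, Ranbp9, Egln1, Tada2b, Mta1, Ski, Qk, Brd1, Cnnm3, Fam120a, Znrf2 and Cul3, 2.48-fold to 3.75-fold lower in undivided cells. What some of them encode is given with their levels. Tada2b, a subunit of the SAGA acetyltransferase, stood at 10.4 and 34.7 CPM in undivided and leukemia-free cells, Mta1, a subunit of the NuRD deacetylase, at 19.4 and 57.4 CPM, Brd1, a bromodomain protein of acetyltransferase complexes, at 48.9 and 136 CPM, and Ski, a corepressor of SMAD proteins, at 40.5 and 119 CPM. Qk encodes an RNA-binding protein (19.9 and 55.7 CPM), and Cul3 a scaffold of ubiquitin ligases (58.0 and 144 CPM). In 11 of the 12 the leukemia-free library was the highest of all 14, the exception being Fam120a. In 10 of the 12 the undivided library lay within the range of the 3 leukemia-free libraries, and in Zfp777 and Brd1 it lay below them. Zfp777 stood at 20.2 and 16.2 CPM in the day 0 controls and at 15 CPM in undivided cells. The other libraries, the leukemia-free one aside, held 11.9 to 16.3 CPM of it. Over all genes tested the leukemia-free library was the highest in 1.77%, although a gene called lower had the undivided library under it by rule. Among all 233 genes called lower it was the highest in 21 (9.01%). Among the 21 of them that were protein-coding at 10 CPM or more, from which the 12 were taken, it was the highest in 16 (76.2%). Over all genes the undivided library lay above the 3 leukemia-free libraries in 21.4% and below them in 18.7%. For a gene called lower the rule excluded a place above them. To lie within the range there meant only not to lie under both day 0 controls.

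**Figure D5:**
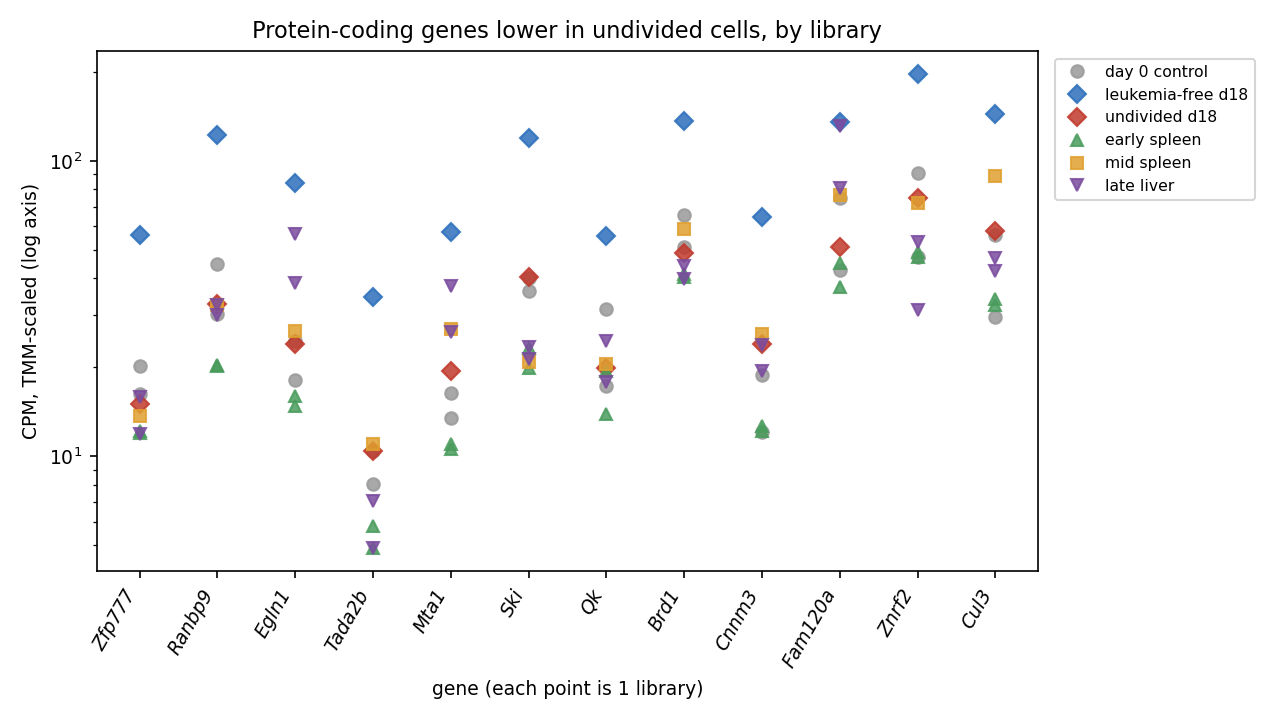
CPM (log axis) of the 12 protein-coding genes at 10 CPM or more with the largest deficit in undivided cells, predicted genes left out, 1 point a library. Leukemia-free cells of day 18 (blue diamonds) stand highest of the libraries drawn (Fam120a at 135 CPM, beside 131 CPM in a late liver library), undivided cells (red diamonds) stand near the day 0, spleen and late liver libraries, and earlier liver libraries are not drawn.

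In most of these genes more than 1 transcript was lower in undivided cells, though often 1 transcript held most of the counts. All 3 transcripts of Znrf2 and all 3 of Mta1 with at least 1 CPM were 2-fold or more higher in leukemia-free cells, and so were 4 of 5 of Qk. In Znrf2 most counts fell to Znrf2-201 (74 and 180 CPM in undivided and leukemia-free cells). Cul3 and Cnnm3 passed 2-fold in 3 of 4, with the remaining transcript higher in undivided cells. Brd1 and Ranbp9 passed in 2 of 4, and Egln1 and Fam120a had 1 transcript each. In Ski the estimated counts moved between transcripts, with Ski-201 at 2.5 and 118 CPM and Ski-203 at 25.3 and 1.04 CPM in undivided and leukemia-free cells, so a lower level of the gene and a change in which transcript received the reads cannot be told apart there. With counts scaled from TPM the log2 difference of Ski was -1.40, against -1.56. Ski and Pmepa1 (5.83 and 12.9 CPM), which limits SMAD signalling, were the 2 genes called lower among 12 TGF-beta response genes, and Rgs16 was called higher. The median of that list was -0.04. Shares called over all genes, for this list and the next, were 0.53% higher and 1.51% lower. Among 18 NFAT, NF-kB and calcium genes, 2 scarce genes were called lower, Rnf128, an anergy ubiquitin ligase, with 17 and 48 counts, and Lrrc32 with 2 and 11.

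Predicted genes and receptor genes of sensory neurons were also among the lower genes. The predicted genes Gm10800, Gm10801 and Gm10719 stood at 9.18, 2.68 and 2.09 CPM in undivided and at 63.0, 19.5 and 13.2 CPM in leukemia-free cells. They ranged from 0.329 to 429 CPM for Gm10800 over the day 0 and other spleen libraries, highest in the second spleen library of day 7. Of 450 olfactory and vomeronasal receptor genes tested, 19 were called lower and 1 higher, beside 1.51% and 0.53% of all genes. The list was added after the values were seen, and its median was -0.56. Between libraries of the same group that median was 2.29 for the spleen libraries of day 7, -0.52 for the day 0 controls and -0.27 for the liver libraries of days 13 and 14. All 1466 such genes summed to 1066 CPM in undivided and 1515 CPM in leukemia-free cells, beside 1005 to 1464 CPM in the day 0 controls, the first spleen library of day 7 and the spleen library of day 14, and 6094 CPM in the second spleen library of day 7. Vmn2r30 had 0 and 21 counts, Olfr1305 2 and 31, Olfr982 1 and 19, and Olfr506 1 and 16. Without receptor genes and predicted Gm genes, 58 genes were higher and 157 lower.

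Markers of other cells gave 3 further lower calls, all scarce, and no higher call. Jchain of plasma cells had 13 and 46 counts, Kit of blood progenitors 0 and 13, and Apob of hepatocytes 2 and 16. Summed over whole marker lists, undivided and leukemia-free cells held 183 and 174 CPM of 20 myeloid genes, 589 and 608 CPM of 16 B and plasma cell genes, 117 and 138 CPM of 9 red cell genes, 1.95 and 2.01 CPM of 7 platelet genes, 4.47 and 4.06 CPM of 5 CD4 T cell and Treg genes, 317 and 270 CPM of 10 NK and gamma-delta T cell genes, 295 and 267 CPM of 10 dendritic cell genes, 2.22 and 1.82 CPM of 12 hepatocyte genes, 28.9 and 21.9 CPM of 10 progenitor genes and 172 and 170 CPM of 9 stromal and endothelial genes. The largest ratio was 1.32, for the progenitor list. The day 0 controls held far more of the red cell list, 5270 and 20356 CPM, which stands beside every comparison with day 0 above, and its part there was not tested. A further gene, of the oxidative stress list, was called, Srxn1, an antioxidant reductase, with 14 and 1 counts (14.3-fold, 2.17 to 604).

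A test with the spread pooled over the 14 low-input libraries called no gene. It assumed that both lone libraries would vary as libraries of the other groups do, and the SE given above is its error. The edgeR quasi-likelihood test (two-sided, Benjamini-Hochberg adjusted p under 0.05) called 0 of 15465 genes (0%), with 86 genes at an unadjusted p under 0.05, 23 higher and 63 lower. The smallest adjusted p of the edgeR test was 1. The lowest unadjusted p was 0.000254 (edgeR), for Zfp777, and 10 of the 12 lower genes above were under 0.05. Xcl1, Gzmb and Tnfrsf9 had unadjusted edgeR p of 0.378, 0.374 and 0.549, since these genes varied widely between libraries of the other groups. A DESeq2 Wald test on the same libraries called 4 genes higher and 3 lower, Zfp777 among the lower. Without the filter on low counts edgeR called 15 genes higher and 6 lower, and Xcl1, Gzmb, Ccl4, Bub1b and Hist1h2ab were among the higher. The 12 lower genes were picked for their large deficits in this same comparison, so small p values among them are no separate support. The median SE was 0.38 for genes of at least 10 CPM, so a difference of the size of the naive genes above could not have been told from 0. Equal levels are not shown by these p values.

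For the genes called higher, undivided cells lay above all 3 leukemia-free libraries in 41 of 82, beside 21.4% of all genes, and leukemia-free cells of day 18 lay under undivided cells and both day 0 controls in 70 of 82, beside 22.2% of all genes. For those called lower, undivided cells lay below all 3 in 153 of 233, beside 18.7% of all genes, and leukemia-free cells of day 18 lay above undivided cells and both day 0 controls in 159 of 233, beside 18.7%. The rule placed undivided and leukemia-free cells apart in each of these genes, so the counts describe where the day 0 controls fell and test nothing.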

How the data were processed

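Low-input RNA sequencing of sorted TCRTg101 was quantified by the authors with kallisto, and the deposited files give an estimated count and a TPM for each transcript and run (bcl2fastq and kallisto are named in the submitters' processing notes with build GRCm38, their versions are not given in the sources used here). Estimated counts were summed per gene through GENCODE vM21 (99.05% to 99.08% of counts in the compared runs), runs were summed per library, and sums were rounded. A gene entered the tests if 6 or more of the 14 low-input libraries reached 10 counts for it, a filter modelled on that of the study. Differences are log2 CPM with a prior count of 2 after TMM scaling (edgeR 4.0.16, R 4.3.3). The model for the pooled-spread test held 8 groups and the series. Fold intervals are exact binomial intervals of both counts. TPM served as an alternative, and alternatives included DESeq2 1.42.0. The oligo-dT library was not used. Scripts were tested on simulated data. Named genes were the 15 largest differences in each direction among called protein-coding genes at 10 CPM or more, up to 4 called members of each list, any gene past the pooled-spread test, and a core panel of 31 genes. Members and lists were chosen with earlier results of these data known. The p-values measure the spread between libraries, which may be technical. Some named genes are not reported here.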

Additional observations from a re-analysis of the deposited data

How the results depend on the processing

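The counts of genes at least 2-fold higher and lower in undivided cells (82 and 233) depended on how scarce genes were treated. They were 130 and 350 with a prior count of 0.5 and 24 and 54 with a prior count of 10. With no filter on low counts they were 124 and 593, and with at least 10 counts in 2 libraries 455 genes were lower. Run 1 alone gave 414 and 864, run 2 alone gave 1070 and 1662, and the summed libraries without the run rule gave 412 and 964. At 1.5-fold the counts were 257 and 600, and at 4-fold 15 and 35. With counts scaled from TPM 73 and 149 genes were called, which shared 51 of the 82 and 115 of the 233. Limited to genes with a mean of at least 10 CPM, an alternative chosen after seeing the data, the counts were 26 and 23. Scaling by DESeq2 size factors or by TMM from the 2 libraries kept 82 and 81 of the genes called higher and 230 and 233 of those called lower. The pooled-spread test called 0 genes in each direction except under the DESeq2 Wald test (4 higher and 3 lower) and with no filter on low counts (15 and 6), and leaving out in turn each of the 11 libraries of groups with replicates gave 0 to 0 genes (the lone libraries were not left out). No named gene that was called changed direction under any of the alternatives run. No paired analysis was possible because each compared group holds 1 library, and replicate numbers of other groups mark no shared animal. Without the second spleen library of day 7, which stood apart, the counts were 76 and 194.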
